A study of Drosophila melanogaster with 10 samples.

Results

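The response of wild-type (WT) Drosophila melanogaster embryos to 40 Gy of ionizing radiation was taken from 6 of the 10 arrays of a study of radiation and Dmp53, the fly p53 protein. All 6 arrays whose labels name WT embryos were used, 3 from irradiated and 3 from mock-treated embryos, and they form 3 sets of 1 irradiated and 1 control array each. Of these sets 1 came from the yw strain, which carries mutations in the body colour gene yellow and the eye colour gene white, and 2 came from the w1118 strain, which carries a white mutation. The other 4 arrays came from 2 such sets of the p53 mutant strain Dmp53NS, which are used here for the estimate of the spread and as a point of comparison. Eggs were gathered over 2.5 h, aged for 2.5 h at 25 C, irradiated or mock-treated, and left to recover for 1.5 h, so the embryos were 2.5 to 5 h old at treatment and 4 to 6.5 h old when their RNA was prepared. Each array reports the pooled RNA of about 1 g of whole embryos, and all of the groups share this schedule.

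In flies p53 is a transcription factor that acts downstream of the kinases that sense broken DNA. In embryos it is known above all for driving cell death, through genes of the reaper region whose products remove the inhibitors that hold caspases in check. By the age at which the RNA was prepared, embryos have passed the blastoderm stage. They lay down segments, form neural precursors and carry out germ band movements, and their cells are known to respond to DNA damage by apoptosis as well as by repair.

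The calls in irradiated WT embryos were few and were all rises. Of 8379 probe sets kept, 20 were higher in irradiated than in control WT embryos at an adjusted p under 0.05 (0.239% of those tested), and 0 were lower (0%), by limma with the set as a block and Benjamini-Hochberg adjustment. At an unadjusted p under 0.05 the 2 directions were close in number, with 350 probe sets higher (4.18%) and 328 lower (3.91%). The 20 included the cell death genes skl, Corp and egr, the nucleotide supply gene RnrL, the iron-sulphur cluster genes IscU and bcn92, the copper chaperone Cox17, the Polycomb gene escl, and the stress regulator Irbp18. The other 7 named members were CG12194, CG10916, CG12171, CG15480, CG18596, Wnk and rdog, and 4 probe sets have no gene name here. Because whole embryos were pooled, a change in the share of cells that express a gene and a change in its RNA per cell cannot be told apart.

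**Figure D1:**
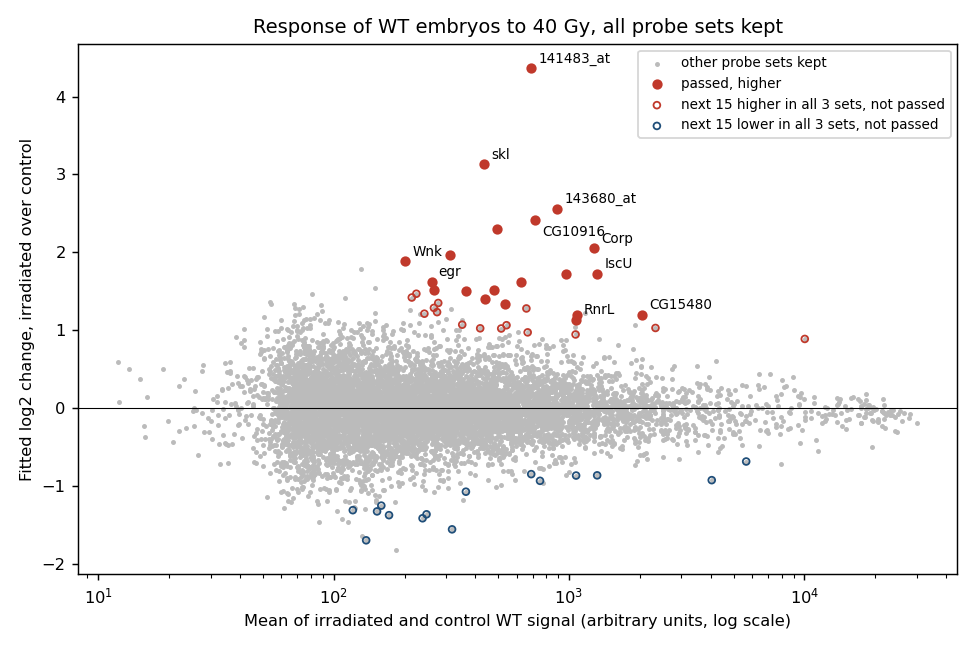
Fitted log2 change of irradiated over control WT embryos (vertical axis) against the mean of the irradiated and control signal (horizontal axis, arbitrary units, log scale) for the 8379 probe sets kept. Filled points are the 20 that passed, which all lie above 1 log2, and open points are the 15 next higher and 15 next lower probe sets, which did not pass.

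The arrays were comparable in scale but not in every technical measure. Median signal lay between 72.2 and 101.9 on the irradiated WT arrays and between 69.2 and 107.7 on the control WT arrays, in the arbitrary units of the deposited MAS5 signal. Both yw arrays ran on a day of their own, with a chip lot and a fluidics protocol of their own, and each of the w1118 sets shared its day with a Dmp53NS set. Strain, day, chip lot and fluidics protocol therefore cannot be told apart for yw. The 18S rRNA control signal was 1290 and 1939 on the irradiated and control yw arrays, against 3.4 to 492.5 on the other arrays. The ratio of 3′ to 5′ signal of the eIF-4a control probe sets, which grows as RNA is degraded or copied incompletely, was 12.2 on 1 array, that of irradiated embryos in the second w1118 set, beside 1.56 to 2.92 on the other 5 WT arrays. In the second Dmp53NS set it was 5.92 on the control and 3.13 on the irradiated array, and in the first 2.11 and 2.14. Of the listed genes with a probe set, 14 of 14 neuroblast and proneural genes, which mark embryos of the labelled age, were above the signal filter (a mean signal over 53.36). So were 17 of 25 maternal transcripts, 5 of 9 late differentiation genes and 5 of 12 egg shell and follicle genes. Of all 13966 probe sets that are not controls, 8379 were above this filter. It is set at a percentile of mean signal, so passing it is not a detection call, and these counts do not establish the age.

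Among the cell death genes, sickle (skl, 148994_at) had the largest change of any named gene. Its protein is a short antagonist of the caspase inhibitor Diap1. The skl signal was 1196, 926 and 265 in irradiated embryos (yw, first and second w1118 set), against 25, 101 and 88.3 in their controls. The lowest irradiated value lay above every control value, and the second w1118 set had by far the lowest of the irradiated values. The fitted rise was 3.13 log2 (95% interval 2.20 to 4.07, adjusted p = 0.000852), or 8.77-fold. It stayed past the threshold when any WT set was left out, but not without either mutant set (adjusted p = 0.105 and 0.103), which take part in the estimate of the spread. Over 16 alternative fits (other scalings, pseudocounts, filters, models and left-out sets) its adjusted p ran from 2.79e-06 to 0.849.

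The neighbours of skl in the reaper region could be followed only in part. Grim (143862_at), another Diap1 antagonist, was below the signal filter and was not tested, with 123.1, 41.2 and 67 in irradiated embryos against 4.7, 36.3 and 22.4 in controls. Its groups did not overlap, although in the first w1118 set the 2 values were close. No probe set is named for rpr or hid in the annotation used, and neither was analysed.

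Corp, the companion of reaper, has been described in flies as a protein that binds and restrains p53. Its signal (153035_at) was 2249, 2226 and 1696 in irradiated embryos, against 422, 448 and 582 in controls. The lowest irradiated value lay far above the highest control value, and the rise of 2.06 log2 (SE 0.24, adjusted p = 4.98e-05) remained past the threshold without each of the 5 sets in turn, and was lost in 1 of the 16 alternatives (adjusted p = 0.0574). Eiger (egr, 146921_at), the tumour necrosis factor of flies and an activator of JNK signalling, read 332, 466 and 395 in irradiated embryos against 154.1, 140.5 and 74.9 in controls. The groups did not overlap, and the rise was 1.62 log2 (SE 0.31, adjusted p = 0.0162). That call was lost without the first w1118 set (adjusted p = 0.0668), without the second (0.270) and with either mutant set dropped (0.111 and 0.129), and its adjusted p ran from 0.000749 to 0.436 over the 16 alternative fits.

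Other parts of the death machinery did not pass. Of 19 listed apoptosis effectors 14 have a named probe set and 11 were kept, of which 3 were called higher (skl, Corp and egr), beside 0.239% of all probe sets. The median change of the 11 was 0.23 log2, beside -0.01 over all probe sets kept. The list was chosen with earlier results of these data known, so its counts are no independent support. The fourth by p-value was scyl, a stress-induced inhibitor of growth signalling, with a change of 0.73 log2 (SE 0.23, adjusted p = 0.296). Dark, the fly apoptosome scaffold, had a change of 0.59 log2 (SE 0.29, adjusted p = 0.629). The p53 transcript itself (150416_at) gave 505, 499 and 261 in irradiated embryos against 243, 233 and 288 in controls. The irradiated value was the higher one in yw and in 1 w1118 set and slightly the lower one in the other, and the change of 0.64 log2 did not pass (SE 0.29, adjusted p = 0.594).

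**Figure D2:**
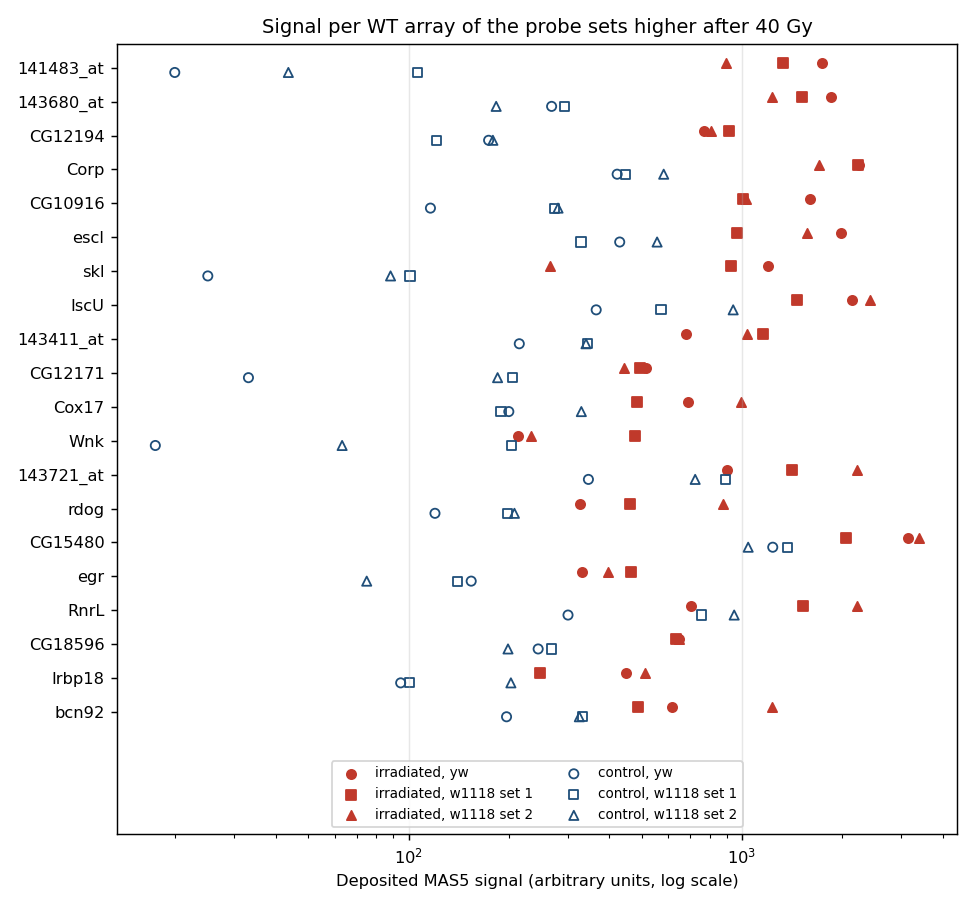
Deposited MAS5 signal (horizontal axis, arbitrary units, log scale) on each of the 6 WT arrays for the 20 probe sets called higher after 40 Gy, with irradiated arrays as filled and control arrays as open symbols and 1 symbol shape per set. In 19 of the 20 all irradiated values lie to the right of all control values (2.88% of all probe sets do so), and RnrL is the exception. The same arrays chose the 20.

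Of the genes for DNA synthesis and repair that were listed, RnrL alone passed the threshold. RnrL (153579_at) encodes the large subunit of ribonucleotide reductase, which makes deoxynucleotides. Its signal was 704, 1525 and 2216 in irradiated embryos, against 301, 756 and 947 in controls. The groups overlap, since both yw signals were below those of the w1118 sets, while the rise within each set was nearly the same, at 1.19, 1.00 and 1.21 log2. The fitted rise was 1.13 log2 (SE 0.22, adjusted p = 0.0190), and it was lost without yw (adjusted p = 0.0745), without the first w1118 set (0.0537) and without the second (0.143), with a range of 0.00425 to 0.610 over the alternatives. Of 14 checkpoint and nucleotide supply genes kept it alone passed, and the list had a median change of 0.24 log2. The next by p-value were the single-strand DNA binding proteins RPA2 (0.63 log2, adjusted p = 0.380) and RPA1 (0.50 log2, adjusted p = 0.482), and mu2, a chromosome protection factor (0.62 log2, adjusted p = 0.565).

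For the repair of double-strand breaks no gene passed, yet 5 of the 16 genes kept had irradiated signals above all control signals, beside 2.88% of all probe sets. These were rad50, mre11, Ku80, Irbp and nbs, of which nbs was named after its values were seen. This list was also chosen with earlier results of these data known. Rad50 and Mre11 form, with Nbs, the complex that holds broken ends. The rad50 signal (141630_at) was 326, 454 and 388 in irradiated embryos, against 136, 222 and 124 in controls, a change of 1.23 log2 (SE 0.28, adjusted p = 0.0714). For mre11 (153629_at) it was 792, 732 and 669 in irradiated embryos, against 232, 383 and 444 in controls, a change of 1.06 log2 (SE 0.26, adjusted p = 0.131). Neither pair of groups overlaps, and rad50 passed with a pseudocount of 50 and both passed with the stricter signal filter.

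Ku80 and Irbp, the fly Ku70, form the ring that binds broken ends for direct joining. The Ku80 signal (144257_at) was 218, 318 and 288 in irradiated embryos, against 127.9, 106 and 125 in controls, a change of 1.09 log2 (SE 0.36, adjusted p = 0.350). Irbp (143279_at) gave 136.9, 194 and 201 in irradiated embryos, against 76.7, 85.4 and 96.5 in controls, a change of 0.92 log2 (SE 0.33, adjusted p = 0.414). DNAlig4, the ligase that seals such joints, was at 175, 178 and 119 in irradiated embryos, against 9.1, 63.2 and 125.1 in controls (1.42 log2, SE 0.46, adjusted p = 0.332). Its groups overlap, since the second w1118 set showed no increase.

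The summed signal of the 16 double-strand break repair genes ran from 3900 to 4861 on the irradiated arrays and from 2359 to 3624 on the control arrays. Their median change was 0.37 log2, at 0.59 in yw, 0.26 in the first and 0.39 in the second w1118 set. Outside this list PolZ1, the catalytic subunit of the translesion polymerase zeta, read 235, 423 and 570.2 in irradiated embryos, against 115.7, 204 and 121 in controls (1.35 log2, SE 0.30, adjusted p = 0.0714). The 16 genes of other DNA repair routes, PolZ1 among them, had a median change of -0.01 log2, the same as all probe sets.

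Another group belongs to mitochondrial metal handling. IscU (151804_at) is the scaffold on which iron-sulphur clusters are built. Its signal was 2132, 1463 and 2413 in irradiated embryos, against 365, 572 and 941 in controls. All irradiated values exceeded all control values, although each level was higher in the second w1118 set than in the first. The rise was 1.72 log2 (SE 0.25, adjusted p = 0.000929) and remained past the threshold without each of the 5 sets, but was lost in 3 of the 16 alternatives (adjusted p up to 0.680).

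The fly counterpart of the small protein ISD11 is bcn92 (142778_at), which stabilizes the sulphur-donating enzyme of the same pathway. It read 617, 489 and 1231 in irradiated embryos, against 197, 332 and 325 in controls, a rise of 1.33 log2 (SE 0.26, adjusted p = 0.0230) that was largest in the second w1118 set. Nfs1 (154115_at), the sulphur-donating enzyme itself, read 1255, 1127 and 1208 in irradiated embryos, against 733, 507 and 716 in controls. Its groups did not overlap, and the change of 0.88 log2 did not pass (SE 0.24, adjusted p = 0.204). The call for bcn92 was lost without yw (adjusted p = 0.0622), without the second w1118 set (0.270), and likewise when either mutant set was dropped (0.154 and 0.193), with a range of 0.00170 to 0.999 over the alternatives.

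Cox17 (145100_at), which carries copper to cytochrome c oxidase, read 689, 486 and 994 in irradiated embryos, against 199.8, 189 and 329.7 in controls. The groups did not overlap, and the rise was 1.52 log2 (SE 0.27, adjusted p = 0.0116), lost without the second w1118 set (adjusted p = 0.105, and 0.00211 to 0.822 over the alternatives). The 14 kept genes for iron-sulphur cluster and copper delivery were listed with earlier results of these data known, so counts over them are no independent support. Of the 14, 3 were called higher and 0 lower, beside 0.239% and 0% of all probe sets. At an unadjusted p under 0.05, 6 were higher and 0 lower, beside 4.18% and 3.91%, and the median change was 0.35 log2. Other stress lists had medians of -0.08 log2 over 9 antioxidant enzymes, -0.13 over 8 heat shock and chaperone genes and 0.13 over 19 glutathione transferases. None of these lists had a called member, beside 0.239% of all probe sets called. GstD5, a glutathione transferase, was at 515, 260 and 373 in irradiated embryos, against 205, 85.2 and 162 in controls, a change of 1.29 log2 (SE 0.33, adjusted p = 0.155).

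The Polycomb gene extra sex combs-like (escl, 141521_at) is a subunit of the Polycomb complex that methylates histone H3 and is a relative of esc. Its signal was 1983, 965 and 1569 in irradiated embryos, against 429.7, 329 and 556 in controls, with no overlap and a rise of 1.72 log2 (SE 0.23, adjusted p = 0.000311) that remained past the threshold without each of the 5 sets, but was lost in 3 of the 16 alternatives (adjusted p up to 0.268). The 12 kept Polycomb group genes had a median change of -0.03 log2, and escl alone passed. Next by p-value were Pc, which binds the methyl mark (-0.97 log2, adjusted p = 0.331), and phol, a DNA-binding recruiter (-0.96 log2, adjusted p = 0.356). The closest relative esc, named after its values were seen, had a change of 0.07 log2 (adjusted p = 0.981).

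Irbp18 (148550_at) is a C/EBP-type leucine zipper protein that pairs with the stress factor Xrp1. It read 449, 248 and 513 in irradiated embryos, against 94.7, 100.6 and 203 in controls. The groups did not overlap, the first w1118 set had the lowest irradiated value, and the rise was 1.52 log2 (SE 0.30, adjusted p = 0.0216). The call was lost without yw (adjusted p = 0.138), without the second w1118 set (0.116), and likewise when either mutant set was dropped (0.111 and 0.139), with a range of 0.00656 to 0.999 over the alternatives. No probe set is named for Xrp1, which was not analysed. Wnk (142694_at), a kinase known for the control of ion transport, read 212, 477 and 232 in irradiated embryos, against 17.4, 203 and 63.2 in controls. Its lowest irradiated value was just above its highest control value, and the rise was 1.89 log2 (SE 0.34, adjusted p = 0.0135), lost without yw (adjusted p = 0.0531) and with either mutant set dropped (0.143 and 0.139), with a range of 0.00221 to 0.999 over the alternatives.

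Several responders are genes of little-known function or probe sets without a name. The largest change of all belonged to 141483_at, with 1738, 1324 and 898 in irradiated embryos against 19.9, 106 and 43.6 in controls. It rose by 4.37 log2 (SE 0.39, adjusted p = 2.18e-06), or 20.6-fold. The unnamed 143680_at gave 1851, 1515 and 1234 in irradiated embryos, against 268, 293 and 183 in controls (2.56 log2, SE 0.27, adjusted p = 1.95e-05). CG12194 (145783_at) gave 769.7, 915 and 805 in irradiated embryos, against 174, 122 and 179 in controls (2.30 log2, SE 0.26, adjusted p = 3.89e-05). These 3 probe sets were called in each of the 16 alternative fits, and no other was.

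CG10916 (155151_at) read 1604, 1003 and 1025 in irradiated embryos, against 116, 274 and 281 in controls, a rise of 2.42 log2 (SE 0.31, adjusted p = 0.000245). CG12171 (149345_at) read 516, 496 and 443 in irradiated embryos, against 33.1, 205 and 185 in controls, a rise of 1.96 log2 (SE 0.35, adjusted p = 0.0116). For CG12171 the irradiated signals were alike, while for CG10916 the yw value was above the others, and for both genes the yw control stood lower than the w1118 controls. CG18596 (151728_at) had irradiated signals of 646, 636 and 648 and control signals of 245, 268 and 199, so that irradiated embryos averaged 643 ± 6.56 and control embryos 237 ± 35.3 (SD, n = 3 each). It rose by 1.39 log2 (SE 0.27, adjusted p = 0.0213).

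CG15480 (146318_at) had signals of 3137, 2045 and 3399.9 in irradiated embryos against 1236, 1367 and 1043 in controls, a rise of 1.20 log2 (SE 0.23, adjusted p = 0.0162). Its increase in the first w1118 set, 0.57 log2, was among the smallest of the 20. The remaining members were rdog (153894_at), 143411_at and 143721_at, which rose by 1.50 (SE 0.28), 1.62 (SE 0.24) and 1.20 log2 (SE 0.22). Of them 143411_at was the most even, with 1.59, 1.71 and 1.56 log2 in the 3 sets. The calls for CG12171, 143721_at and CG15480 were lost without yw (adjusted p = 0.0816, 0.0576 and 0.0531), and those for 143721_at, rdog, CG15480 and CG18596 without the second w1118 set (0.187, 0.143, 0.206 and 0.1998). With either mutant set dropped, CG12171, 143721_at and CG15480 were also lost, at adjusted p of 0.105 to 0.226. Over the alternatives the highest adjusted p was 0.680 for CG12171, 0.482 for 143721_at and CG18596, 0.774 for rdog and 0.849 for CG15480, and the lowest was 0.000205, 0.00221, 0.00434, 0.00124 and 0.00170 for CG12171, 143721_at, CG18596, rdog and CG15480.

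Mean signals of the 20 ran from 307 to 2861 (median 893) in irradiated embryos, against 56.6 to 1215 (median 238) in controls. The fitted fold ran from 2.19 to 20.6 (median 3.18). For 19 of the 20 the irradiated and control groups did not overlap, beside 2.88% of all probe sets, and 16 were at least 2-fold higher in every set. The same arrays chose the 20, so these counts are no further support for the calls. Over all probe sets 17 were at least 2-fold higher in every set (0.203%) and 0 were at least 2-fold lower in every set, and the only one of the 17 that was not called was GstD5. The called genes lie on all the large chromosome arms. Of the 32 protein-coding genes directly beside the 16 named ones in the Release 6 gene order, 15 were kept and 0 passed. Of all probe sets only 0.239% passed, so 15 genes would seldom hold a call. The median change of the 15 was 0.07 log2, from -0.48 to 0.69.

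The sets can be set side by side for these 20. The median rise of the 20 was 2.07 log2 in yw, 1.31 in the first of the w1118 sets and 1.61 in the other. The largest rise was that of yw for 11 of the 20, of the second w1118 set for 7 and of the first for 2. The lowest and highest set differed by under 0.5 log2 for 5 of the 20 and by over 1 log2 for 9. Over all 8379 probe sets the within-set changes spread with an SD of 0.753 log2 in yw, 0.449 in the first of the w1118 sets and 0.599 in the other. Changes of the 3 sets correlated weakly across probe sets, at 0.0916 to 0.122, each set being a pair of arrays of its own. In yw 618 probe sets were at least 2-fold higher and 651 at least 2-fold lower, against 172 and 161 in the first w1118 set.

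**Figure D3:**
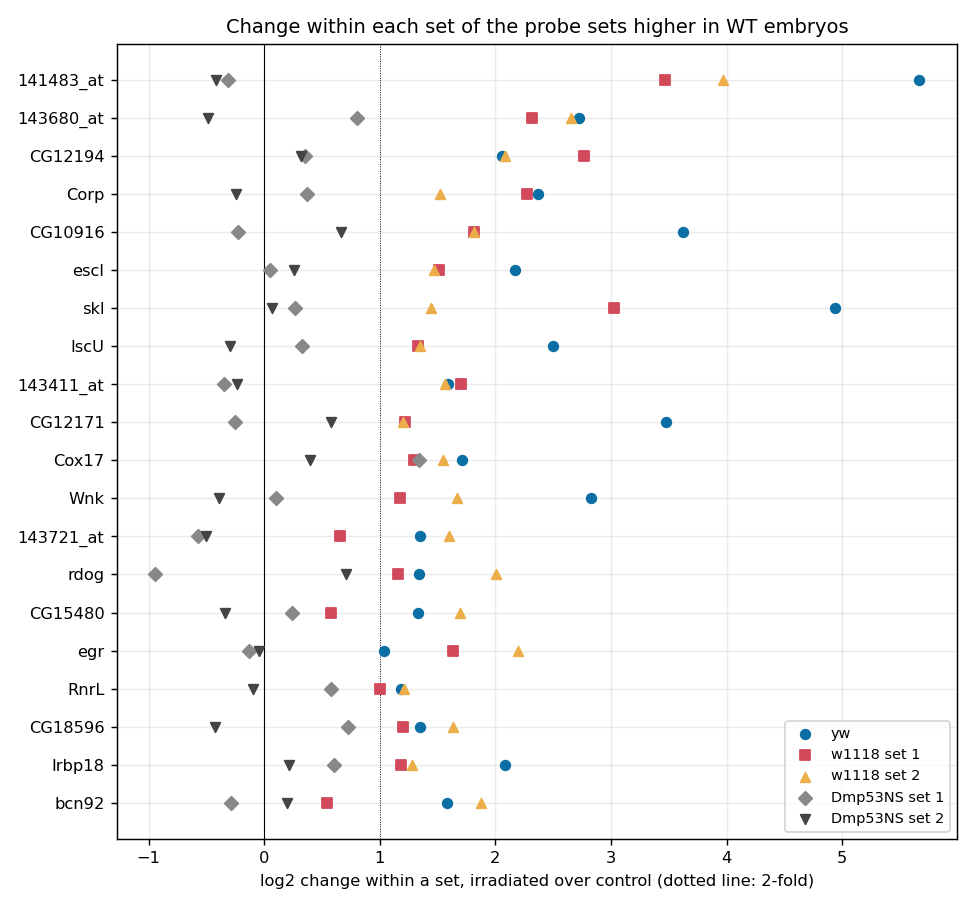
Log2 change within each set, irradiated over control (horizontal axis, dotted line at 2-fold), for the 20 probe sets called higher in WT embryos. The 3 WT sets all lie to the right of 0, and for 19 of the 20 they also lie to the right of both Dmp53NS sets.

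The calls made without a set were then looked up in that set. The left-out set was absent from the fit, but its arrays still entered the signal filter and the added constant. The look-up is therefore not fully independent of the calls. Without yw 29 probe sets were called higher, of which 21 were also higher in yw, with a median of 0.94 log2 there. Of the 29 called higher without the first w1118 set, 26 were higher in it (median 1.16 log2), and all 12 called without the second were higher in it (median 1.54 log2). Of all probe sets, 48.6% to 50.3% were higher in the left-out set. For the lower direction, 12 probe sets were called without the first w1118 set, and 10 of them were lower in it but with a median of only -0.18 log2. Another 3 were called lower without yw, of which 2 were lower in yw, and 0 without the second w1118 set. Of the 20, 8 remained called without each of the 5 sets, namely 141483_at, 143680_at, CG12194, Corp, CG10916, escl, IscU and 143411_at. Of these, Corp and 143411_at were lost in 1 of the 16 alternatives, CG10916 in 2 and escl and IscU in 3.

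Whether the response differed between the strains was tested directly, as the change in yw minus the mean change in w1118, although yw is a single pair of arrays and the fit leaves 2 residual degrees of freedom. Of 8379 probe sets 73 passed (0.871%, and 8.47% at an unadjusted p under 0.05), 34 with a greater and 39 with a smaller change in yw, and 2 of the 20 WT responders were among them, with 6 of the 20 at an unadjusted p under 0.05. These were skl, whose change was greater in yw by 2.70 log2 (adjusted p = 0.0303), and CG12171, greater by 2.27 log2 (adjusted p = 0.0336). Both have low yw control signals, at 25 and 33.1. As yw is a single set, the strain, the day, the chip lot, the fluidics protocol and the single collection cannot be told apart. With the WT arrays alone, with no replicate block and with a random block, 0 calls were made.

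Below the threshold, the 15 probe sets with the next smallest p among those higher in all 3 sets had changes of 0.89 to 1.47 log2 and adjusted p of 0.0657 to 0.161, and 13 of the 15 did not overlap between groups, beside 2.88% of all probe sets. These 15 were chosen by p and direction in the same arrays, so that count is no further support. Beside rad50, mre11, PolZ1 and GstD5 they included CG3008, with 373, 294 and 285 in irradiated embryos against 115.9, 75.1 and 145 in controls (1.42 log2, adjusted p = 0.0714). Cul2, the scaffold of a ubiquitin ligase, had 267, 610.1 and 845 in irradiated embryos against 142, 349 and 301 in controls (1.02 log2, adjusted p = 0.141). Mabi had the largest change of the 15, with 455, 310 and 244 in irradiated embryos against 68.2, 123 and 148 in controls (1.47 log2, adjusted p = 0.161). Flw, a catalytic subunit of protein phosphatase 1, had a change of 1.07 log2 (adjusted p = 0.161), and be, CG14545 and lncRNA:CR42862 of 1.21, 1.02 and 1.03 log2 (adjusted p = 0.161, 0.148 and 0.0714). The other members were Rtnl1 (142892_at), the unnamed 153716_at and 143353_at, and 149813_at, which is annotated to several genes. Of these genes flw, be and lncRNA:CR42862 each have another kept probe set, which read less, at 0.27, 0.55 and 0.20 log2.

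No probe set was called lower in the reported fit. With other settings 7 were called lower with the stricter signal filter, 1 each with a pseudocount of 50 and with the robust variance model, 12 without the first w1118 set and 3 without yw. The 15 that came closest in the reported fit were chosen by p and direction in the same arrays. They had changes of -1.70 to -0.69 log2 and adjusted p of 0.0657 to 0.224. Of the 15, 3 did not overlap between groups (LBR, kni and Atx-1), beside 2.54% of all probe sets. The first of them is LBR, the lamin B receptor of the nuclear envelope, with 696, 1249 and 873 in irradiated embryos against 1469, 2056 and 1554 in controls (-0.87 log2, adjusted p = 0.0852). The second is kni, a gap gene that later acts in the tracheal system, with 199, 277 and 208 in irradiated embryos against 602, 526 and 374 in controls (-1.08 log2, adjusted p = 0.150). Atx-1, the fly ataxin 1, had 42.9, 88.1 and 56.8 in irradiated embryos against 222, 203 and 111 in controls (-1.31 log2, adjusted p = 0.199).

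In most of the others the second w1118 set had low signals in both irradiated and control embryos. Ptc, the Hedgehog receptor, had 89.9, 580 and 14.2 in irradiated embryos against 295, 754 and 178 in controls (-1.56 log2, SE 0.36, adjusted p = 0.0791). Meso18E, a mesoderm gene, had 51, 151.5 and 11.8 in irradiated embryos against 241, 217 and 151.5 in controls (-1.70 log2, SE 0.40, adjusted p = 0.104). Ndf, a nucleosome-destabilizing factor, had 3426, 3752 and 1204 in irradiated embryos against 8473, 4636 and 2731 in controls (-0.93 log2, SE 0.20, adjusted p = 0.0657). The second w1118 set held the lowest irradiated signal for 11 of the 15 and the lowest control signal for 13 of the 15. The median change of the 15 was -1.53 log2 in yw, -0.57 in the first and -1.17 in the second w1118 set, where the eIF-4a ratios of irradiated and control arrays were 2.27 and 1.56, 1.95 and 2.13, and 12.2 and 2.92. The part of RNA integrity in these values was not tested.

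Another probe set of the same gene often read differently. Of the 15 lower probe sets 5 belong to a gene with other kept probe sets, 6 in number, and 5 of these 6 were higher and 1 lower, with changes of -0.12 to 0.89 log2. Rtnl1, a reticulon that shapes the endoplasmic reticulum, gave 50.6, 413 and 18.9 in irradiated embryos against 347, 526 and 76.2 in controls with 142893_at (-1.42 log2). With 142892_at it gave 23194, 11819 and 5666 in irradiated embryos against 8258, 7053 and 4194 in controls (0.89 log2, adjusted p = 0.0657). Likewise the change for RAF2 was -1.38 log2 with 148892_at and 0.55 with 153654_at, for rib -0.85 with 142609_at and 0.06 with 151643_at, and for larp -1.33 with 150772_at and 0.06 with 153228_at. For inc, an adaptor of a ubiquitin ligase, 142917_at had a change of -1.26 log2 and 142918_at and 142080_at of -0.12 and 0.06. The remaining lower probe sets were those of ytr, CG1737 and path and the unnamed 143364_at. None of the 16 named genes called higher has another kept probe set, so their rises have no reading from another probe set.

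**Figure D4:**
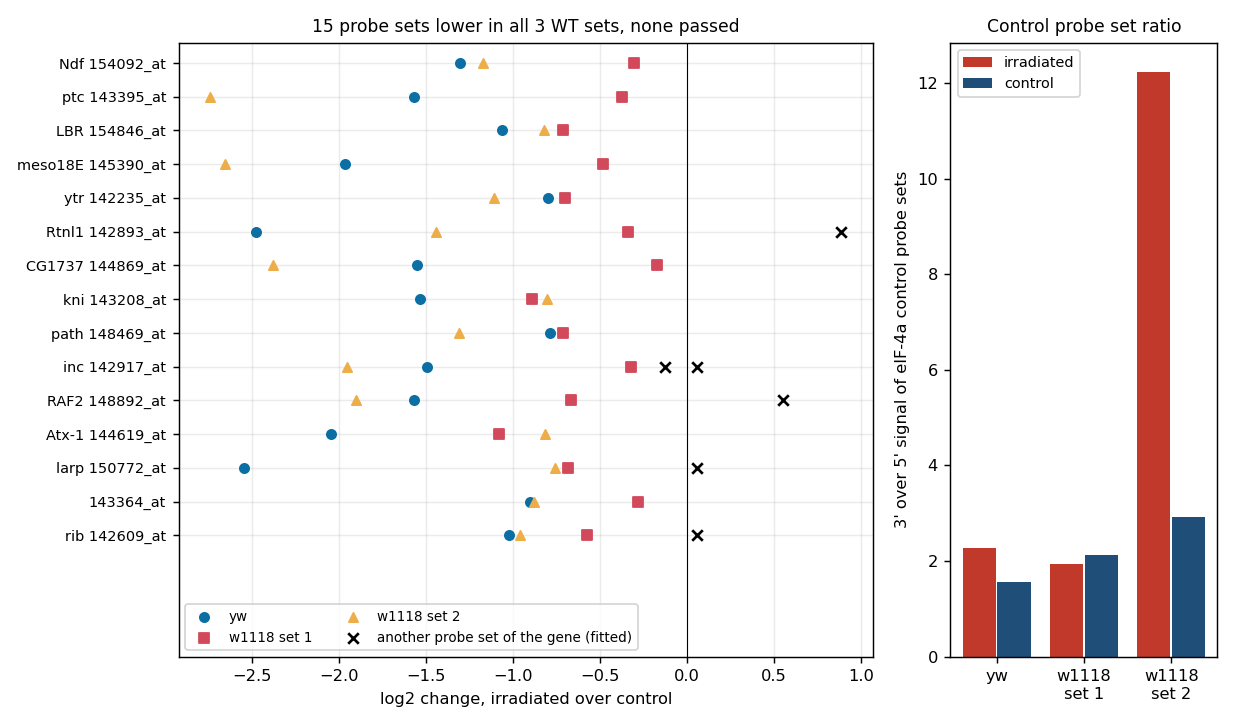
Left, log2 change within each WT set (horizontal axis, irradiated over control) for the 15 probe sets nearest to a fall, with crosses for the fitted change of other probe sets of the same gene. Right, ratio of 3′ to 5′ signal of the eIF-4a control probe sets on the irradiated and control WT arrays, which reaches 12.2 for irradiated embryos of the second w1118 set.

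Markers of the embryo's own cell types and stages gave no called member in either direction. Of all probe sets only 0.239% were called higher and 0% lower, so lists of this size would seldom hold a call. Median changes were -0.07 log2 over 14 neuroblast and proneural genes, -0.13 over 8 mesoderm genes, -0.15 over 14 blastoderm genes, 0.06 over 17 maternal transcripts, 0.08 over 8 germ line genes and 0.03 over 8 hemocyte genes. The cell cycle list of 22 genes had a median of -0.05 log2, with Orc1, an origin recognition subunit, first by p-value (0.54 log2, SE 0.25). The lowest medians were those of 7 endoderm and yolk genes (-0.39 log2), 5 late differentiation genes (-0.30) and 9 segment polarity and Hox genes (-0.29). Next came genes of the amnioserosa and dorsal ectoderm, tissues patterned by Dpp signalling, with a median of -0.25 log2 over 13. The summed signal of these 13 was 6527 to 7412 on the irradiated arrays against 7881 to 9032 on the control arrays. The T-box gene Doc1 had 2358, 1566 and 1202 in irradiated embryos against 2872, 2459.7 and 2452 in controls, and its groups did not overlap (-0.65 log2, SE 0.22, adjusted p = 0.350). Doc3, its relative, had a change of -0.54 log2 (adjusted p = 0.608) and the Dpp receptor tkv of -0.66 log2 (adjusted p = 0.438), while that of dpp itself was 1.09 log2 (adjusted p = 0.351). None of these passed.

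**Figure D5:**
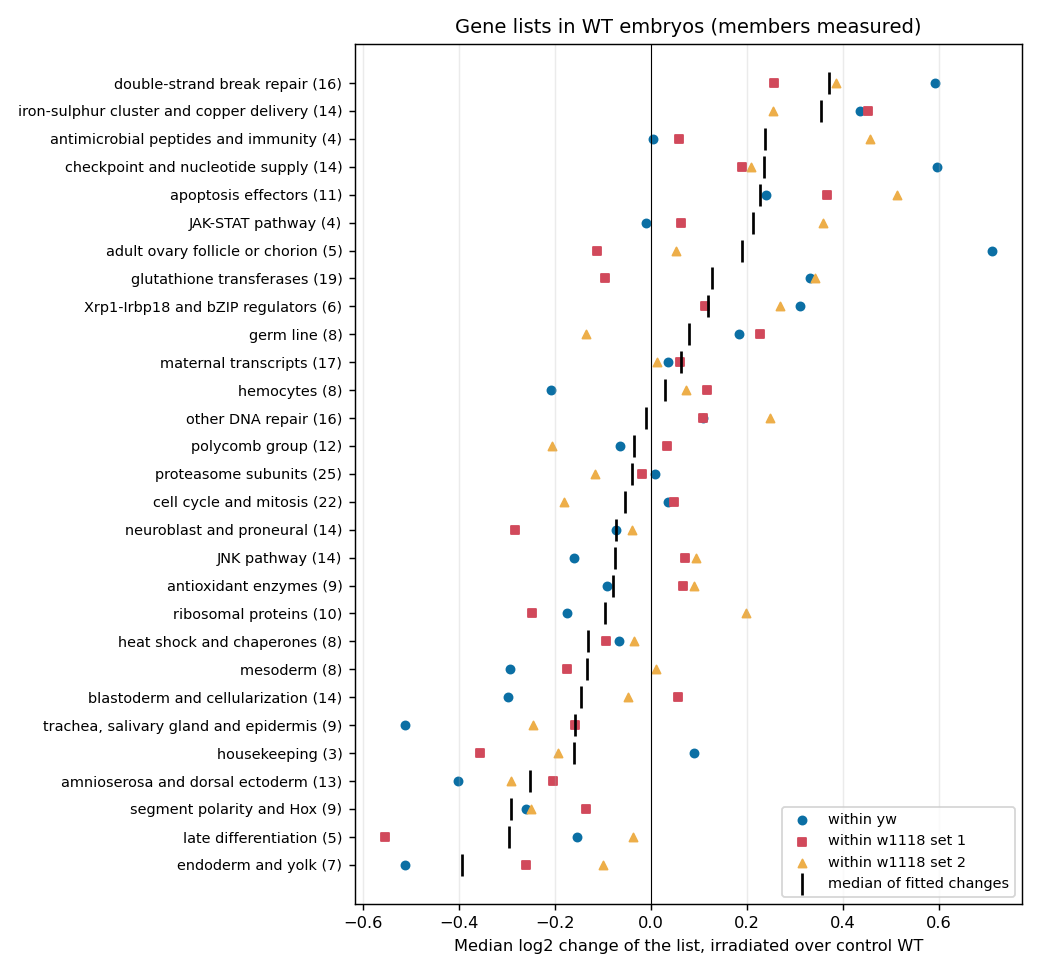
Median log2 change of each gene list in WT embryos, irradiated over control (horizontal axis), as the median of the fitted changes (bar) and within each of the 3 sets (symbols), with the number of members kept in parentheses. Double-strand break repair (0.37) and iron-sulphur cluster and copper delivery (0.35) have the highest medians of the fitted changes, and both lie above 0 in all 3 sets. The lists were chosen with earlier results of these data known.

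The listed signalling and housekeeping genes held a single called member, beside 0.239% of all probe sets called. The 14 JNK pathway genes had a median of -0.07 log2, with egr as the only one that passed and Traf4, an adaptor of the pathway, next by p-value (0.60 log2, adjusted p = 0.414). The 4 kept genes of the JAK-STAT list had a median of 0.21 log2 and 0 passed, and of them upd1, a ligand, had a change of 0.61 log2 (adjusted p = 0.609). Medians were -0.04 log2 over 25 proteasome subunits and -0.10 over 10 ribosomal proteins, which became 0.00 with quantile normalization. The germ line gene tud, which organizes germ granules, had the largest change among the tissue markers that were higher in all 3 sets, with 198, 263 and 156 in irradiated embryos against 69.8, 177 and 34.1 in controls (1.22 log2, adjusted p = 0.204).

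In the p53 mutant none of the 20 probe sets passed. Their median within-set change was 2.07, 1.31 and 1.61 log2 in the WT sets, against 0.17 and -0.07 log2 in the 2 Dmp53NS sets, and the fitted mutant changes ran from -0.54 to 0.87 log2. Control signals also differed between mutant and WT for some of them. For rdog the mutant controls read 1632 and 1048, above WT controls (120, 198 and 208) and irradiated WT embryos (326, 460 and 878). For CG12171 they read 427 and 405, against 33.1, 205 and 185 in WT controls. Those of Cox17 were lower, at 83.6 and 172 against 200, 189 and 330. The part of these control levels in the mutant changes was not tested. For 19 of the 20 the change in every WT set exceeded that in both mutant sets, beside 7.12% of all probe sets, and the WT values of these 20 were the ones that chose them. The exception was Cox17, with 1.34 and 0.40 log2 in the mutant sets. The difference itself, WT minus Dmp53NS, was called for 1 of 8379 probe sets (0.0119%), 141483_at, at 4.73 log2 (SE 0.62, adjusted p = 0.00137). That call was lost with quantile normalization, no filter, no variance trend, no replicate block, a random block, and with either mutant set dropped. The probe set passed the signal filter through its irradiated WT arrays. At an unadjusted p under 0.05 it was positive for 19 of the 20, beside 1.67% of all probe sets. It was 2.41 log2 for 143680_at (adjusted p = 0.0562), 1.99 for Corp (adjusted p = 0.0847), 2.97 for skl (adjusted p = 0.362) and 0.65 for Cox17 (adjusted p = 1.00), none of which passed. In the mutant alone 0 probe sets were called, and 134 were at an unadjusted p under 0.05. Across the probe sets kept, the changes of the 2 Dmp53NS sets correlated at -0.290.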

How the data were processed

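The authors deposited 1 signal intensity per probe set and array, on a linear scale. MAS5 is the tool in the submitters' processing notes; its version is not given in the sources used here, and no detection calls were used. Every array has a trimmed mean of 250.04, so the deposited intensity was globally scaled before deposit. Per the deposited run records, a unit with no expression value and used here as other information only, the arrays were run on 3 days. Of 14010 probe sets, 44 are Affymetrix controls and entered no test. By the platform annotation 12442 carry 1 symbol, 327 several and 1197 none here. A probe set with several or none is given by its identifier.

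Values were rescaled to a common trimmed mean (2% at each end, which moved them by almost nothing) and analysed as log2(signal + 14.6), the added constant being the 20th percentile of all values, which understates the fold of dim probe sets. The filter kept those whose mean signal exceeded 53.36 (the 40th percentile), 8379 for 6848 genes. limma 3.58.1 in R 4.3.3 (lmFit, eBayes with a trend) was fitted to all 10 arrays with the set as a fixed block and separate irradiation effects for WT and Dmp53NS, leaving 3 residual and 18.1 prior degrees of freedom. The strain difference has 2 residual degrees of freedom, and its prior degrees of freedom were estimated as infinite. Adjusted p-values are two-sided Benjamini-Hochberg values over the 8379, with a threshold of 0.05. Per-array values in the text are the deposited signals, and "within-set change" is the log2 difference of a set's 2 arrays. A group is said not to overlap when all 3 irradiated values lie above, or all below, the 3 control values.

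Pairing comes from the series' own description, which calls the sets biological replicates. Deviations from group means correlated within sets at 0.639, 0.652 and 0.584 (WT) and 0.428 (mutant, equal by construction). The WT means were taken over both strains, so these values include differences of strain and day as well as pairing. With strain in the fit and the set as a random block, the correlation within sets was estimated at 0.199. With 3 WT sets the number of arrays limits the precision. The fit was tested on simulated data with independent normal noise, whose SD for a probe set was the fitted one on every array. There changes of 1 log2 were called far less often than changes of 2 log2. Differences in spread between the sets were not simulated.

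The genes named were all called probe sets, the 15 next higher and 15 next lower with the same direction in every set, up to 4 members of each list by p, a short list of radiation-response genes, and up to 10 calls of each difference test. The members, gene lists and tests were chosen with earlier results of these data known, so no list is independent support for a direction. Alternatives covered scaling, pseudocount (1 and 50), filter (none and the 60th percentile), variance model, block, arrays in the fit, threshold (0.10) and each set left out. Changes within single sets were added after the data were seen. Genome coordinates and sequences are left out, as no genome build is stated for the array.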

Additional observations from a re-analysis of the deposited data

Results flagged for a closer look

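The test of the difference between WT and Dmp53NS embryos called 141483_at, whose change was greater in WT by 4.73 log2. The call was lost with quantile normalization, no filter, no variance trend, no replicate block, a random block, or either mutant set left out. The probe set passed the signal filter through its irradiated WT arrays.

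The test of yw minus w1118, in which yw is a single pair of arrays, called 73 probe sets. It called 0 with the WT arrays alone, with no replicate block and with a random block, so the values below describe these arrays. The 10 with the smallest p are given here, with yw first. CG9467 (152624_at) had a change of -3.13 log2 in yw, against 0.27 and 0.36 in the w1118 sets, a difference of -3.45 log2. Cda4, a chitin deacetylase, differed by 3.42 log2, SkpC by -3.12, olf413 by -3.47 and Dora by -3.06. Fs(2)Ket, an importin beta, differed by -2.94 log2, Mdr49, an ABC transporter, by -3.75, and Myd88, a Toll pathway adaptor, by -3.05. The gene aqz differed by -2.31 log2, with changes of -0.48 in yw and of 0.40 and 3.27 in the w1118 sets. The unnamed 152151_at differed by 3.49 log2. None of these 10 is among the 20 WT responders. Strain, hybridization day, chip lot, fluidics protocol and the single yw collection cannot be told apart in these values.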

How the results depend on the processing

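The 20 calls in WT embryos kept their direction in every alternative fit, and 3 of them (141483_at, 143680_at and CG12194) were called in each of the 16. In the reported fit the count of calls was 20. It was 12 with quantile normalization, 8 with no filter, 35 with the stricter filter (28 higher and 7 lower), 3 with no variance trend and 11 with the WT arrays alone. It was 5 with no replicate block and 6 with the set as a random replicate block, and 12 to 41 with each set left out. It was 27 with a pseudocount of 50 (26 higher and 1 lower) and 21 with the robust variance model (20 higher and 1 lower), so that the split between the directions, with 0 lower in the reported fit, depends on these settings. Of the 20, 11 remained with quantile normalization, 8 with no filter, 3 with no variance trend, 11 with the WT arrays alone, 5 with no replicate block, 6 with the random replicate block, and 11 to 18 with each set left out. The block follows the pairing that the series describes.

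The count for the difference between yw and w1118 was 73, and became 119 with a pseudocount of 1, 2 with no filter, 26 with the stricter filter, 0 with the WT arrays alone, 0 with no replicate block or a random replicate block, 0 to 6 with each set left out, and 132 at an adjusted p of 0.10. Where it made 0 calls, limma gave 827 (WT arrays alone), 333 (no replicate block) and 521 (random replicate block) at an unadjusted p under 0.05. The count for WT minus Dmp53NS was 1, and became 0 with quantile normalization, no filter, no variance trend, no replicate block or a random replicate block. It was 3 with a pseudocount of 50, 7 with the stricter filter, 2 with the robust variance model, 0 to 7 with each set left out, and 3 at an adjusted p of 0.10. Probe sets whose WT groups do not overlap numbered 454, and 724 with no filter. Except where fewer arrays or more probe sets entered the fit, the cause was not tested. Signal close to background limits dim probe sets such as grim.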

Other observations

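The hemocyte, tracheal and neural lists held single genes with larger shifts than their medians. SPARC, a basement membrane protein made by hemocytes, had 63, 279 and 296 in irradiated embryos against 279.8, 352 and 434 in controls (-0.93 log2, SE 0.32, adjusted p = 0.380). The tracheal regulator vvl had 179, 334 and 89.2 in irradiated embryos against 307, 568 and 205 in controls (-0.85 log2, SE 0.29, adjusted p = 0.358). Delta, the Notch ligand, had 1024, 1072 and 232 in irradiated embryos against 1681, 1319.7 and 442 in controls (-0.63 log2, SE 0.21, adjusted p = 0.350). Each was lower in all 3 sets and none passed. Among glutathione transferases GstE6 had 582, 100.5 and 349 in irradiated embryos against 171, 58.6 and 134 in controls (1.21 log2, SE 0.32, adjusted p = 0.165), and GstD1 was higher in all 3 sets as well (0.66 log2, adjusted p = 0.350).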
